A study of Homo sapiens with 2 samples.

Results

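Noncoding RNA was read out on the array by 247 probes that the files annotate with a RefSeq noncoding transcript accession (those beginning NR_), out of 41000 probes in all. Control spots were left out, and so were the probes for MALAT1. The 247 probes carry 206 gene names, and each probe is spotted once per array. The rule used the accession only and no measured value, so the ratios were not part of the choice. Against the RefSeq gene table of GRCh38.p14, 241 of the 247 found an entry, 202 of them by accession, 14 by symbol, 14 by an older symbol and 11 by gene number. By the type given there, 158 of the probes are for pseudogenes, 63 for long noncoding RNAs and 4 for small structured RNAs. The other types are genes that RefSeq now holds to be protein coding (16 probes) and names left without a match (6 probes). The probes annotated as noncoding RNA when the array was designed are therefore mainly pseudogene probes.

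RNA came from HEK-293, a human embryonic kidney cell line, transfected for 48 h with 75 nM of either a scramble oligo (control) or a miR-204 mimic, a synthetic RNA that raises the level of this microRNA in the cell. Both RNAs were hybridized together on an Agilent 2-colour array, on which every spot is read in Cy3 and in Cy5. On the first array the control carried Cy3 and the miR-204 RNA Cy5, and the dye-swap array had them the other way round. No second transfection is named, so the 2 arrays were counted as 1 replicate, and no difference given here can be set against the spread between cultures.

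Noncoding transcripts act as RNA. Small nucleolar RNAs (snoRNAs) guide chemical changes of ribosomal RNA, and most of them are cut from introns of host genes whose spliced transcript may itself encode no protein. Long noncoding RNAs such as NEAT1, the scaffold of nuclear paraspeckles, are spliced or retained in the nucleus without being translated. Pseudogenes are copies of protein-coding genes that no longer encode the full protein, and a transcribed copy can share long stretches with its parent's mRNA. A microRNA pairs through its seed, bases 2 to 8 from its 5′ end, mostly with 3′ untranslated regions of mRNAs, but a seed match can also lie in a noncoding transcript. The mature sequences that RefSeq gives for the MIR204 gene are shown, since the mimic stands for this microRNA, with the seed in capitals. The mimic's own sequence and its modifications are not given in the sources used here, and the probe sequences were not used here.
hsa-miR-204-5p: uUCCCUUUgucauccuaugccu
hsa-miR-204-3p: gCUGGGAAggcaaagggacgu
The first lies at chr9:70810031-70810052 and the second at chr9:70809993-70810013 of GRCh38.p14, both on the minus strand.

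Many of the noncoding probes gave a signal in HEK-293 cells. The Feature Extraction software flags each spot and channel whose signal is well above background. A probe was counted when it carried this flag in the control RNA of both arrays, or in the miR-204 RNA of both. Such a channel is called detected from here on. By this rule 132 of the 247 probes (53.4%), for 111 of the 206 gene names, were counted. The share was 61.6% over all probes of the array and 71.5% over the 24823 probes annotated with a RefSeq mRNA. All 4 channels were detected for 126 probes, and no channel for 105. No noncoding probe was saturated or carried an outlier flag. Probes for XIST and for genes of chromosome Y make up 31 of the 247, and 3 of these were counted. They stay in every total and are not described singly. Without them the counted share was 129 of 216 (59.7%). It was then 85 pseudogene probes (55.9%) and 25 of 38 long noncoding RNA probes (65.8%), and all 4 small structured RNAs were counted.

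**Figure D1:**
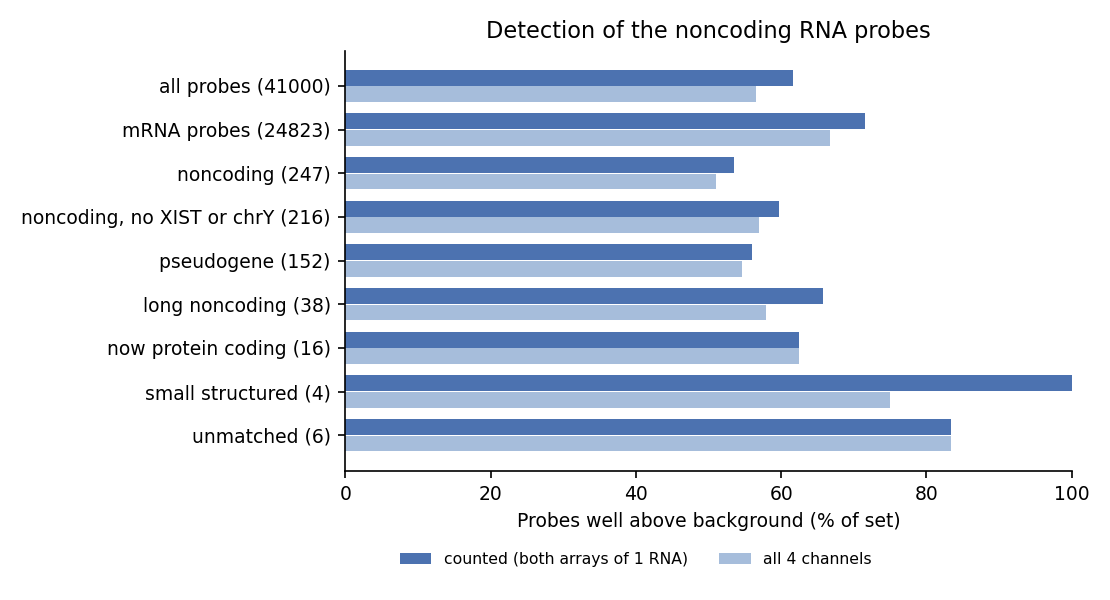
Bars give the percent of probes that were counted (dark) or detected in all 4 channels (light), for all probes, mRNA probes and the noncoding probes with and without XIST and chromosome Y, and by RefSeq type within the latter, with the number of probes in brackets. The noncoding probes (53.4% counted) lie below the mRNA probes (71.5%).

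The share of probes detected differed by family. None of the 4 protocadherin pseudogene probes was counted, and 3 of 9 olfactory receptor pseudogene probes were, for 2 of 6 gene names (OR7E91P and OR7E156P). Of 7 ribosomal protein pseudogene probes 6 were counted, and of 5 probes for copies of SDHA, the flavoprotein subunit of succinate dehydrogenase, all 5. Whether such a probe reads the copy or its parent's mRNA was not tested. The beta-globin pseudogene HBBP1 and BIC (now MIR155HG), the host transcript of miR-155, were detected in no channel. MEG3, an imprinted long noncoding RNA, was detected in all 4 channels with 1 of its 2 probes and in none with the other. H19, another imprinted RNA, was counted. These families and single names were chosen after the values were seen. Of markers of the cell line, NEFL, INA and VIM had every probe detected in all 4 channels and NEFM 1 of 2, while PAX2, a kidney and HEK-293 transcription factor, had its 1 probe at background. The blood, liver and muscle genes PTPRC, ALB, MYH7 and HBB were detected with none of their probes.

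No counted noncoding RNA was seen in 1 of the RNAs only. The 6 counted probes short of 4 detected channels (for LOC85391, LOC729603, TDH, MIAT, FAM13A1OS and H19) lacked the same one, miR-204 RNA in Cy3. That channel had the fewest noncoding probes detected, 126 against 133, 140 and 138 in the others. It also had the fewest over the whole array, 23451 against 25526, 26324 and 27095. No counted noncoding probe was undetected in 1 RNA on both arrays, so no lower bound of a ratio had to be given.

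No counted noncoding probe was changed by 2-fold. A ratio is the log2 of the miR-204 over the control signal after quantile normalization of the 4 channels, given for the first array, the dye-swap array and their mean. A change was called where the mean reached 1 with the same sign on both arrays. Of 132 noncoding probes, 0 were lower and 0 higher by this rule, where it called 0.518% of all 25270 counted probes lower and 0.123% higher. At those rates 132 probes would hold fewer than 1 call each way. At 1.5-fold in the mean, again with the same sign, 3 noncoding probes (2.27%) were lower and 2 (1.52%) higher, against 2.62% and 1.27% of all counted probes. Both shares are near those of the whole array and are no result about noncoding RNA.

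The ratios as a whole lay around 0. Over the 126 probes detected in all 4 channels, the mean ratio had a median of -0.0037, an interquartile range of -0.18 to 0.10 and an SD over probes of 0.23. Over all 23159 such probes of the array these were 0.0099, -0.14 to 0.15 and 0.25. A mean ratio within 0.25 of 0 was found for 92 of the 126 (73.0%), and for 73.7% of all probes. The median was -0.02 over 23 long noncoding RNA probes and 0.01 over 10 probes of genes now held to be protein coding, and that of the 85 pseudogene probes lay between them. The lowest and the highest mean both belonged to pseudogenes, at -0.87 and 0.61.

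The 2 arrays gave different pictures of the same RNAs. Of the 126 probes, 25 were below 0 on both arrays, 32 above 0 on both, and 69 (54.8%) had opposite signs, with 52.9% opposite over all probes. Across these probes, which share both arrays and the same labelled RNA pools, Pearson's r between the arrays was -0.26 and Spearman's rho -0.14. Over all 23159 probes they were -0.08 and -0.07. These describe probes of 1 experiment and are not correlations over replicates.

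**Figure D2:**
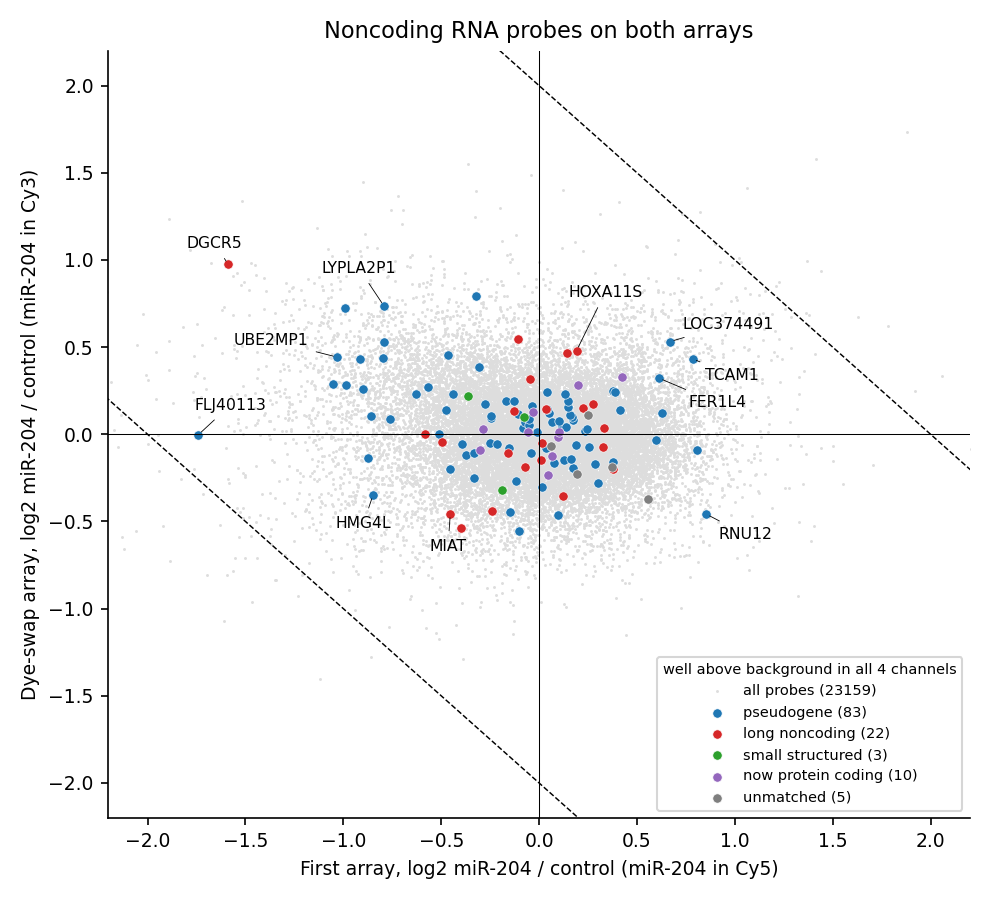
Each point is a probe detected in all 4 channels, placed by its log2 ratio, miR-204 over control, on the first array (x axis) and with the dyes swapped (y axis); grey, all 23159 probes, some of which lie outside the frame; coloured, 123 noncoding probes by RefSeq type, leaving out XIST and chromosome Y. Dashed lines mark a 2-fold mean, which no coloured point crosses, and many points at the left lie in the quadrant where the arrays disagree, DGCR5 furthest out at -1.59 and 0.97.

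The probe nearest to a 2-fold fall was that of LOC85391, now SNORD14E, a C/D box snoRNA encoded in introns of the chaperone gene HSPA8 (chr11:122433842-122433901 on hg18, the build of all probe positions here). Control and miR-204 gave processed signals of 48.7 and 44.1 on the first array, then 35.5 and 9.01 with the dyes swapped. All 4 values are dim, and the last was not well above background. The ratios were -0.15 and -1.85, with a mean of -0.9990, just short of the threshold. With the background corrected by normexp and the ratios fitted by loess the mean was -0.14. A further probe that the files give this name, placed on chromosome 12 and annotated with another kind of accession, was detected in all 4 channels at 0.88 and -0.06, a mean of 0.41. The 4 probes of the host HSPA8 had means from 0.04 to 0.26.

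The lowest noncoding probe detected in all 4 channels was 1 of 3 for FLJ40113 (now GOLGA6L5P), a transcribed golgin pseudogene. Its signals were 888 and 261.5 in control and miR-204 RNA on the first array and 395 and 397 on the dye-swap array. The ratios were therefore -1.74 and -0.0037, and the mean of -0.87 came from the first array alone. The 3 probes of this name disagreed. The one at chr15:80595262-80595321 is that just described. The one at chr15:80593558-80593617 had ratios of -0.76 and 0.09 and a mean of -0.34. The one at chr15:80904259-80904318 had 0.81 and -0.09 and a mean of 0.36. They thus differed on the first array, and all 3 were near 0 on the dye-swap array.

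HMG4L (now HMGB3P1), a processed copy of the chromatin protein gene HMGB3 at chr20:32885123-32885182, was lower on both arrays. The signals were 1882 in control and 1026 in miR-204 RNA on the first array, and 1215 and 955 on the dye-swap array. The miR-204 value was the lower of each pair, with ratios of -0.85 and -0.35 and a mean of -0.60. After normexp and loess it was at -0.61, the only noncoding probe then 1.5-fold lower in the mean and below 0 on each array. The FLJ40113 probe was further down at -0.73, but its dye-swap ratio was then 0.02. The single probe of the parent HMGB3 had ratios of 0.16 and -0.10 and a mean of 0.03.

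LOC284441 (now ACTR2P2), a copy of the actin-related ARP2 gene ACTR2, followed with ratios of -0.87 and -0.14. The 2 probes of ACTR2 averaged -0.23 and -0.40 on the arrays, but their single means were apart, at -0.71 and 0.08. ST7OT1 (now ST7-AS1), an antisense RNA at the ST7 locus (chr7:116379931-116379990), had signals of 1084 and 813 on the first array and 798 and 552 on the dye-swap array. The miR-204 RNA was lower in both pairs, by -0.40 and -0.54. The 2 probes of the sense gene ST7 had means of -0.05 and 0.01. The other names among the 10 lowest with the same sign on both arrays were MIAT, TncRNA, PYY2, LOC340508, RUNDC2C and PTTG3, with means from -0.45 for MIAT to -0.29 for PTTG3. After normexp and loess LOC340508 went from -0.33 to -0.07 and RUNDC2C from -0.30 to -0.16. PYY2 is a pseudogene of the gut hormone gene PYY, and PTTG3 a copy of the securin gene PTTG1. The PTTG1 probe had ratios of -0.0043 and -0.26.

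The highest noncoding probe was that of TCAM1 (now TCAM1P), a pseudogene of a testicular cell adhesion molecule, at chr17:59295400-59295459. Its signals were 82.9 in control and 143 in miR-204 RNA on the first array and 56.2 and 76.5 on the dye-swap array. LOC374491 (now TPTE2P6), a copy of the phosphatase gene TPTE2 at chr13:24069688-24069747, had 165 and 262, then 110 and 159. In both, miR-204 was the higher of each pair. The ratios were 0.78 and 0.43 for TCAM1, with a mean of 0.61, and 0.67 and 0.53 for LOC374491, with a mean of 0.60. Both probes are dim, and normexp with loess gave means of 0.29 and 0.31, so that no noncoding probe was then 1.5-fold higher.

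FER1L4, a transcribed pseudogene of the ferlin family at chr20:33609934-33609993, came next. Its signals were 318 and 484 on the first array and 251 and 315 on the dye-swap array, higher in miR-204 by 0.61 and 0.32. LOC440353 (now NPIPB12), of the nuclear pore complex interacting protein family, had 4 probes with means from 0.04 to 0.38. The highest of these had ratios of 0.42 and 0.33. HOXA11S, LOC492303, MEIS3P1, C20orf198 and LOC730092 were also among the 10 highest, with means from 0.33 for HOXA11S to 0.28 for LOC730092. After normexp and loess LOC492303 went from 0.31 to 0.05 and MEIS3P1 from 0.31 to 0.15. HOXA11S (now HOXA11-AS) is the antisense RNA of the homeobox gene HOXA11, at chr7:27195372-27195431. It had 5983 and 6678 on the first array and 3954 and 5475 on the dye-swap array, so that miR-204 was higher in both pairs, by 0.19 and 0.48. The probe of HOXA11 had ratios of -0.11 and 0.41.

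**Figure D3:**
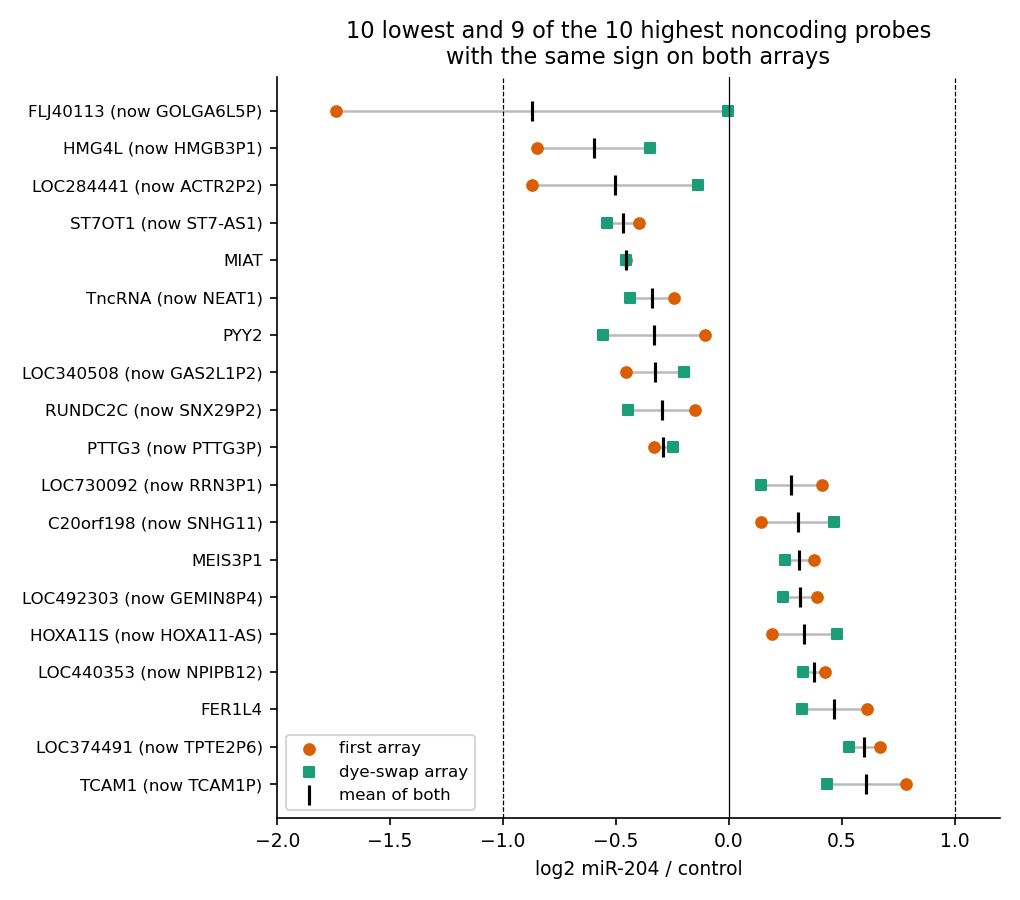
The 10 lowest and 9 of the 10 highest noncoding probes detected in all 4 channels and with the same sign on both arrays, as log2 miR-204 over control; circles, first array; squares, dye-swap array; black marks, their mean; dashed lines, 2-fold. All means lie between -0.87 and 0.61, and the bar of FLJ40113 runs from -1.74 to 0.

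The snoRNA host genes of the set were all detected, and none was changed by 2-fold. The introns of these transcripts hold the snoRNAs, and the spliced remainder is often short-lived. The list holds 6 noncoding probes of 6 names, each detected in all 4 channels, with a median of 0.16 and a range of -0.02 to 0.30. The median of all probes so detected was 0.0099. Of the 6, 3 were above 0 on both arrays, 0 were below 0 on both and 3 had opposite signs. Over all probes so detected these shares were 25.2%, 21.9% and 52.9%. C20orf198 (now SNHG11) had signals of 688 and 752 on the first array and 474 and 659 on the dye-swap array, higher in miR-204 by 0.14 and 0.47. SNHG1, host of a cluster of C/D box snoRNAs at chr11:62376149-62376208, had 12849 and 14530, then 8904 and 9993. Both pairs were higher in miR-204, by 0.22 and 0.15, closer to each other than in the other hosts above 0 on both.

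SNHG5 had ratios of 0.33 and 0.04. GAS5, named for its rise in growth-arrested cells, had 10496 and 12881 on the first array and 8116.5 and 7667 on the dye-swap array, so that the arrays pointed in opposite ways, at 0.32 and -0.07. SNHG10 and SNHG8 were within 0.07 of 0 on each array. The files place the SNHG8 probe on chromosome 3 and the RefSeq table places SNHG8 on chromosome 4, so the name is taken from the files alone and the probe is counted among those without a match.

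The 5 small structured RNAs of the list were all counted, and 4 of them had all 4 channels detected, with a median of -0.03. None passed 2-fold. SCARNA17, of the class that guides modification of spliceosomal RNA in Cajal bodies, had 348 and 306 on the first array and 237 and 191 on the dye-swap array. It was the only one of the 4 with the same sign on both, at -0.19 and -0.32. SNORD22, a snoRNA cut from SNHG1, had ratios of -0.07 and 0.10, and SNORA70, encoded in an intron of the ribosomal protein gene RPL10, -0.36 and 0.22. RNU12, which matched an older symbol of the U12 pseudogene RNU12-2P on the X chromosome, had 0.85 and -0.46. The array's samples were made from total RNA, and probes in snoRNAs can also hybridize to unspliced host transcripts, a contribution that was not tested.

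**Figure D4:**
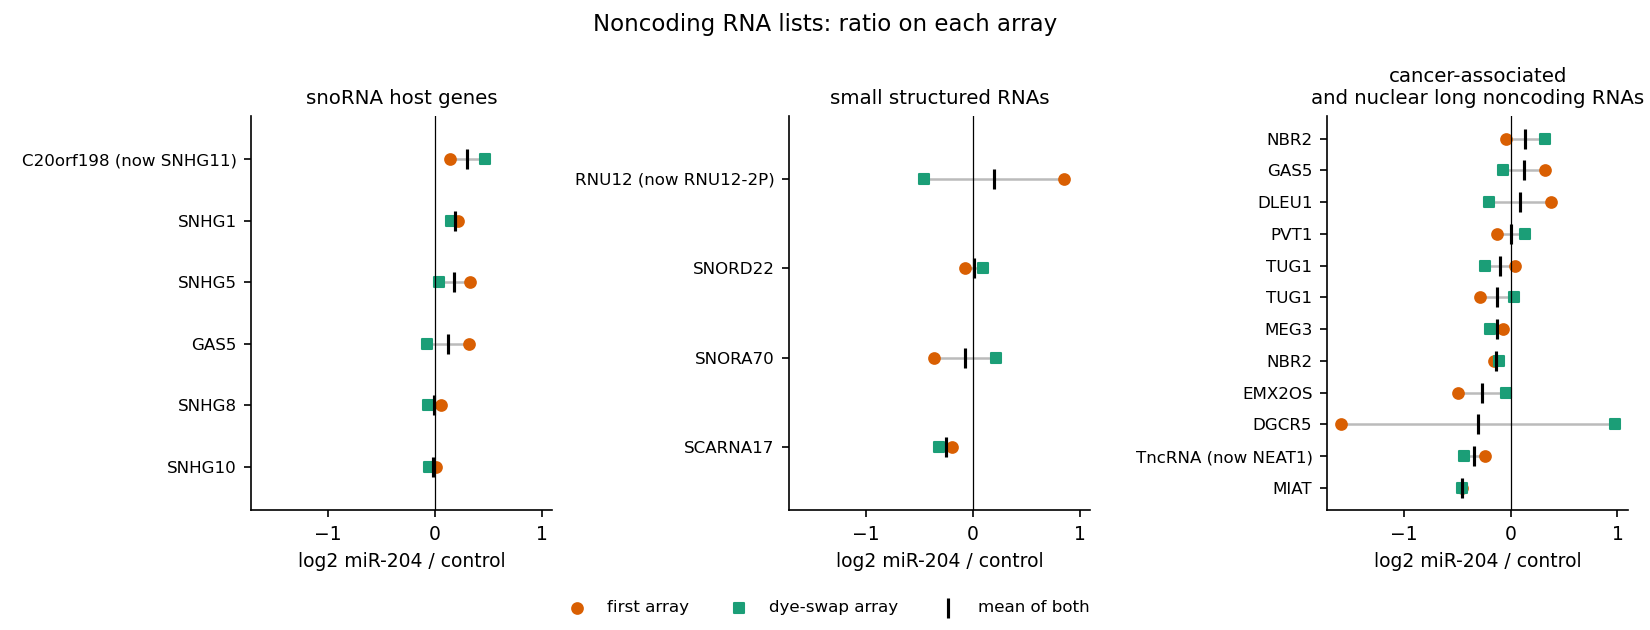
Ratio of miR-204 over control (log2) on the first array (circles), the dye-swap array (squares) and their mean (black marks) for probes detected in all 4 channels on 3 gene lists. The 6 snoRNA hosts lie between -0.02 and 0.30 in the mean, and DGCR5 has the widest gap between its arrays.

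Long noncoding RNAs known from cancer or from nuclear bodies made up the largest list, with 17 probes of 11 names. Of these, 14 probes were counted, for all 11 names, and 12 were detected in all 4 channels, with a median of -0.13 and a range of -0.45 to 0.14. Among the 12, 5 were below 0 on both arrays, 0 above 0 on both, and 7 had opposite signs. Over all 23159 probes so detected these shares were 21.9%, 25.2% and 52.9%, with a median of 0.0099. The list is small, some names hold more than 1 of the 12 probes, and probes are not replicates. GAS5 and MEG3 are also on other lists. MIAT, a long noncoding RNA that gathers in nuclear speckle-like bodies, was measured at chr22:25396497-25396556 as 208 and 151.5 on the first array and 144 and 105 on the dye-swap array. Both pairs were lower in miR-204, and the ratios of -0.45 and -0.46 were nearly equal. After normexp and loess they were -0.26 and -0.37. The other counted probe of MIAT, dimmer and detected in 3 of the 4 channels, had -0.31 and -0.0051. With normexp and loess that probe was above 0 on both arrays, at 0.07 and 0.16, so the 2 probes then differed in sign.

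TncRNA (now NEAT1) at chr11:64949850-64949909 had 358 and 303 on the first array and 246 and 182 on the dye-swap array. The miR-204 RNA was the lower in both pairs, by -0.24 and -0.44. A further probe of this name, annotated with another kind of accession and so no member of the set, was at -0.29 and -0.14. EMX2OS, antisense to the homeobox gene EMX2, had -0.49 and -0.04, while the EMX2 probe had 0.19 and -0.22.

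The remaining probes of that list detected in all 4 channels, DGCR5 excepted, had means between -0.13 and 0.14. TUG1, a long noncoding RNA now listed as protein coding, had 2 probes with means of -0.13 and -0.10. PVT1, next to MYC, had -0.13 and 0.14, and DLEU1, from the 13q14 region deleted in leukaemia, 0.38 and -0.20. NBR2, which shares a promoter with BRCA1, had 1 probe at -0.16 and -0.11 and 1 at -0.05 and 0.32. DGCR5, from the DiGeorge critical region, was measured at 68.8 and 23.2 on the first array and 25.2 and 48.6 on the dye-swap array. It was thus brighter in Cy3 on both arrays, whichever RNA carried it, with ratios of -1.59 and 0.97. The imprinted list had MEG3 alone in all 4 channels, at -0.07 and -0.19, and H19 counted at 0.68 and -0.19.

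Swapping the dyes splits each ratio into a part that keeps its sign and a part that changes it. The mean of both turned ratios is called the treatment part. The dye part is 0.5 times the first array's ratio minus the dye-swap array's. It is negative where Cy3 was brighter on average over both arrays. Both parts also hold noise of spots and arrays, which a single dye swap cannot tell apart from them. The dye part was larger in size than the treatment part for 69 of the 126 probes (54.8%) and for 52.7% of all 23159. It was at least 0.5 in size for 13 of the 126 (10.3%), against 6.34% of all probes. Of these 13, 12 had a negative dye part, and 12 were pseudogenes by RefSeq type, RNU12 among them. Pseudogenes make up 85 of the 126 probes. Over the whole array, 1162 of 1469 probes with a dye part of at least 0.5 in size had a negative one. None of the 13 passed 2-fold in the mean, and 12 had opposite signs on the arrays.

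UBE2MP1, a copy of the NEDD8-conjugating enzyme gene UBE2M at chr16:34261559-34261618, had 4124 in control and 1982 in miR-204 RNA on the first array and 2000 and 2721 on the dye-swap array. The Cy3 value was the higher of each pair, and the ratios were -1.03 and 0.44. The probe of the parent UBE2M had -1.16 and 0.52. LYPLA2P1, a copy of the acyl-protein thioesterase gene LYPLA2, had -0.79 and 0.74, and its parent -0.16 and 1.03. SDHALP1 (now SDHAP1) had 2 probes, at -1.05 and 0.29 and at -0.99 and 0.29, and the 2 probes of SDHA averaged -0.73 and 0.22. In each of these 3 names copy and parent were both brighter in Cy3.

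Copies and parents were set side by side for 49 counted names of pseudogenes, or former pseudogenes, and their 46 parents, both detected in all 4 channels. The parents were named by hand from the descriptions, the list is not complete, and it was drawn up with the values known. Treatment parts of copy and parent had the same sign for 37 of the 49 names, with Pearson's r of 0.52 and Spearman's rho of 0.60 across names. The dye parts had the same sign for 38 names, with 0.663 and 0.585. The points share both arrays, several share a parent, and names are not replicates. The median gap between the treatment parts was 0.11, and the largest was 0.63, for HMG4L against HMGB3. LOC730092 (now RRN3P1), at 0.28, stood near its parent RRN3, an initiation factor of RNA polymerase I, at a mean of 0.33 over 3 probes. MEIS3P1 was at 0.31 and its parent MEIS3 at 0.04. Cross-hybridization of a copy's probe to the parent mRNA was not tested.

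**Figure D5:**
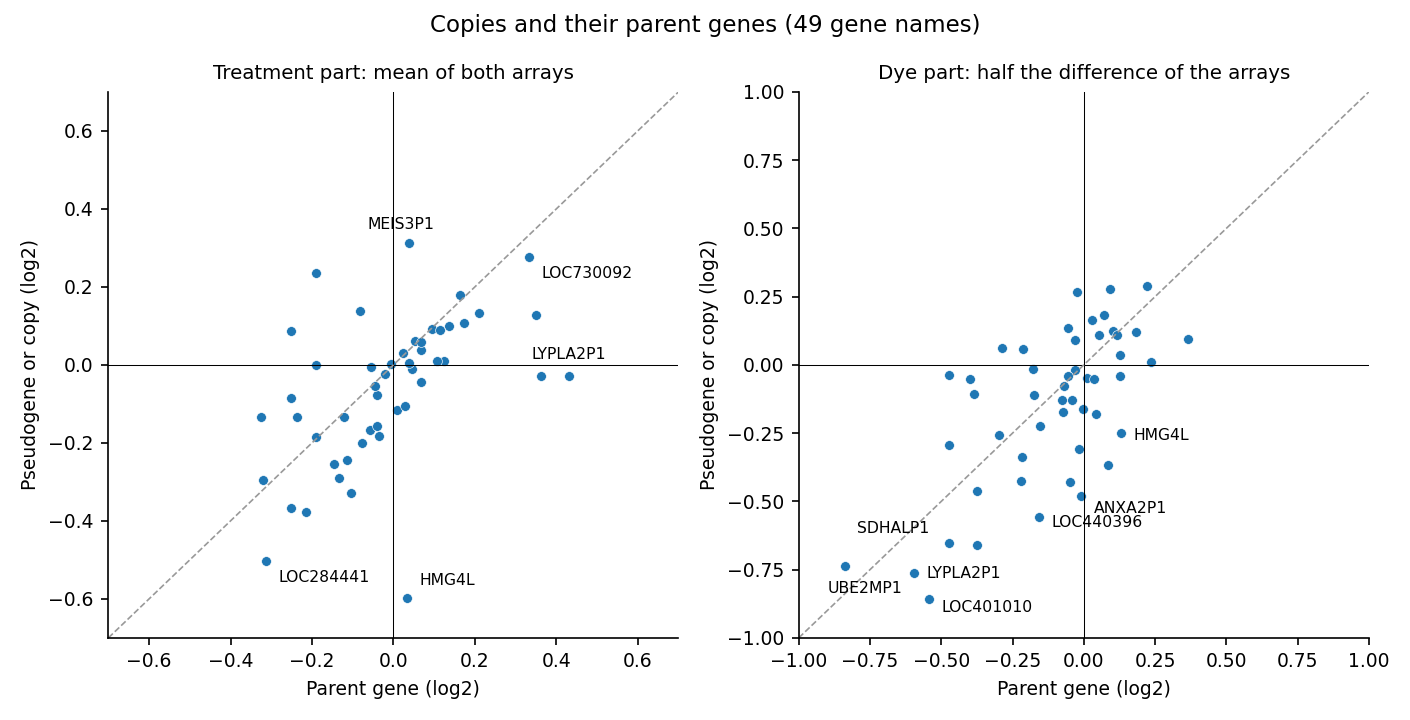
Each point is 1 of 49 gene names of copies. The x axis gives the value of its parent gene and the y axis its own (log2, probes of a name averaged). The left panel shows the treatment part (mean of both arrays). The right panel shows the dye part (negative where Cy3 was brighter on average over both arrays). Dashed lines mark equal values; on the left HMG4L, at -0.60 against 0.03, lies furthest from its parent.

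Probes for the same noncoding gene were compared by their means. Of 18 names with more than 1 counted probe, leaving out XIST and chromosome Y, 13 had probes within 0.25 of each other, and the median gap was 0.155. The sign of the mean was the same in all probes of 12 names and differed in 6. FLJ40113 alone had probes more than 1 apart. The next widest gap was in LOC220729 (now SDHAP4), whose 2 probes were at -0.32 and 0.15. The first of these had a dye part of -0.58 and the second of -0.0036, where SDHA averaged -0.47.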

How the data were processed

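The 2 arrays of 1 dye swap were used, both on 1 slide. Per the file headers, the authors extracted them with Feature Extraction 9.5.3.1, probe positions being on hg18. The deposited processed and mean signals are intensity values, of which the former had been corrected for background and dye bias. A deposited log10 ratio gives Cy5 over Cy3 signal, and the deposited series table holds log2 ratios turned to miR-204 over control.

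Control spots and 128 outlier-flagged probes of 41000, none of them noncoding, were left out. Log2 processed signals were averaged over spots and quantile normalized over the 4 channels with limma 3.58.1 in R 4.3.3. Names and types came from the RefSeq table of GRCh38.p14, by accession without its version, then by symbol, older symbol or gene number on the probe's own chromosome.

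The probes named are the 10 lowest and 10 highest with the same sign on both arrays (1 of the latter and some copies with their parents are not reported here), those past 2-fold, those on the gene lists and those of a gene whose probes differ by over 1, besides others stated as chosen after the values were seen. The members, the gene lists and these rules were chosen with earlier results of these data known. XIST and chromosome Y genes are not named singly. With 1 replicate no test was made for the main counts, and the number of arrays limits the precision. Background correction, normalization, the deposited ratios, the signal filter, flags, threshold, gene summary and test were varied. The steps were tested on simulated data.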

Additional observations from a re-analysis of the deposited data

How the results depend on the processing

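The detected set and its centre moved little. The detection rules share the same flags, and most normalizations hold the centre of all probes near 0, so neither is a separate check. The number of noncoding probes well above background was 126 to 142 under the 5 other rules tried, against 132, and the median ratio of the counted probes stayed between -0.05 and 0.04 under all alternatives, including each array alone. The count of probes at least 2-fold lower was 0 and became 1 with processed signals not normalized further, with each array centred on its median, with quantile normalization of the ratios, and with the deposited log ratios or series table. That probe is LOC85391, at -0.9990 in the reported setting and between -1.31 and -0.14 under the others. It became 2 with no filter on signal, for RPL32P3 and ANXA2P3, which were well above background in no channel. With 1 array left out it ranged from 1 to 5, the 5 being FLJ40113, DGCR5, LOC729603, SDHALP1 and UBE2MP1 on the first array alone and the 1 being LOC85391 on the dye-swap array alone. At 1.5-fold it was 3. The count of probes at least 2-fold higher was 0, became 3 with no filter on signal and 2 at 1.5-fold, and was 0 under all the other alternatives, each array alone among them. At 1.5-fold with normexp and loess, an alternative chosen after seeing the data, 1 probe was lower and 0 were higher. Of the 39 probes named by rule, 37 kept their sign under all 9 other normalizations and ways of using the deposited values. The exceptions, PVT1 and SNORD22, lay within 0.05 of 0. The 9 are not separate checks. One of them leaves the normexp and loess ratios unchanged, and the deposited log ratios repeat those of the processed signals. Each array alone was not among the 9, and several named probes, such as DGCR5 and RNU12, had opposite signs on the arrays. Of the 429 values of the 39 named probes under the alternatives, 28 moved by more than the SD of their 2 arrays. Each array alone was among these alternatives and can never move by that much. The SD is also widest where the arrays disagree, so this count does not measure how stable a ratio is. By limma, 4 of the 132 probes had an unadjusted p under 0.05 (3.03%, against 4.66% of all counted probes), and 0 after Benjamini-Hochberg adjustment. By the methods' t-test these numbers were 6 (4.55%, against 6.35%) and 0. Both compare miR-204 with control RNA but treat arrays of 1 replicate as replicates. Their p-values therefore do not take in the spread between cultures. The slide was not run as a block since both arrays lay on 1 slide. The limma fit used the ratio within each array and so paired both RNAs, while the t-test over the 4 channels left this pairing out. A single dye swap of 1 RNA pair leaves nothing further to block on. Signal over background limits the set: the 105 probes detected in no channel give no usable ratio.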
